A study of Mus musculus with 4 samples.

Results

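Genes of lipid uptake, fatty acid synthesis, lipid droplets and lipoproteins were examined in mouse colon of wild-type and Esr2-deficient mice. Esr2 encodes the estrogen receptor β, and the deleted part of the gene is not stated. The 44 genes were chosen by symbol from 46095 symbols in the deposited count table, all 44 were found there, and 38 passed the filter on low counts. The groups were 2 libraries of wild-type colon (WT) and 2 of Esr2-/- colon (Esr2-KO), all from C57BL/6 mice at postnatal day 21, with no treatment given in the labels. The labels state no sex, no position within the colon and no hour of collection. Separate animals for the libraries of 1 group are not stated either, so that p-values measure the spread between these libraries, which may be technical.

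Dietary and circulating fatty acids enter a cell through membrane carriers, are held by binding proteins and are activated to acyl-CoA. Acyl chains are then built stepwise onto glycerol to give triacylglycerol, which is stored in droplets under a coat of perilipins, broken down again by lipases, or loaded onto apolipoprotein B and secreted. In the gut this secretory path is mainly a property of the small intestine. The colon sees mostly short-chain fatty acids made by microbes, and its epithelium also makes fatty acids of its own.

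The libraries held 30826790 to 33709643 counts. Levels are given as CPM, counts scaled by the library total and its TMM factor, and 3 counts, the limit that a count of 0 allows, equal 0.0826 to 0.114 CPM, which covers counting error only. Esr2 had WT counts of 21 and 13 and Esr2-KO counts of 6 and 16 (edgeR adjusted p = 0.854), too few to check the genotype labels. Esr2-KO 2 stood apart: transcripts of 30 pancreatic acinar genes took 21.2% of its counts, while WT 1 had 0.0503%, WT 2 had 0.0549% and Esr2-KO 1 had 0.196%. Genes that mark position along the gut and the daily clock moved with genotype: the posterior gene Hoxb13 stood at 72.8 and 153 CPM for WT against 616 and 676 for Esr2-KO, and the clock-associated Ciart at 0.551 and 0.345 against 10.9 and 8.38 CPM. Both were picked after their values were seen. Position in the colon, hour of collection and genotype cannot be told apart for any gene below.

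In all, 5 of the 38 tested genes were called by edgeR (quasi-likelihood test, adjusted p under 0.05), 1 higher and 4 lower in Esr2-KO.
Among all 17169 genes tested, 2.69% passed, with 1.30% higher and 1.39% lower. The gene that rose was Plin2, which encodes the main droplet coat protein outside fat tissue. Those that fell were Lpin2, a phosphatidate phosphatase that makes diacylglycerol, Mogat2, which acylates monoacylglycerol, Mgll, which hydrolyses it, and Elovl6, which lengthens palmitate. The median log2 fold change (Esr2-KO over WT) was -0.14 over the 38 genes, with 13 positive and 25 negative, and -0.0031 over all genes tested. The 2 groups did not overlap for 23 of the 38 genes, 6 higher and 17 lower, while they did not overlap for 54.7% of all genes tested, 27.0% higher and 27.7% lower. In whole tissue, fewer cells of a type and less RNA per cell cannot be told apart.

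**Figure D1:**
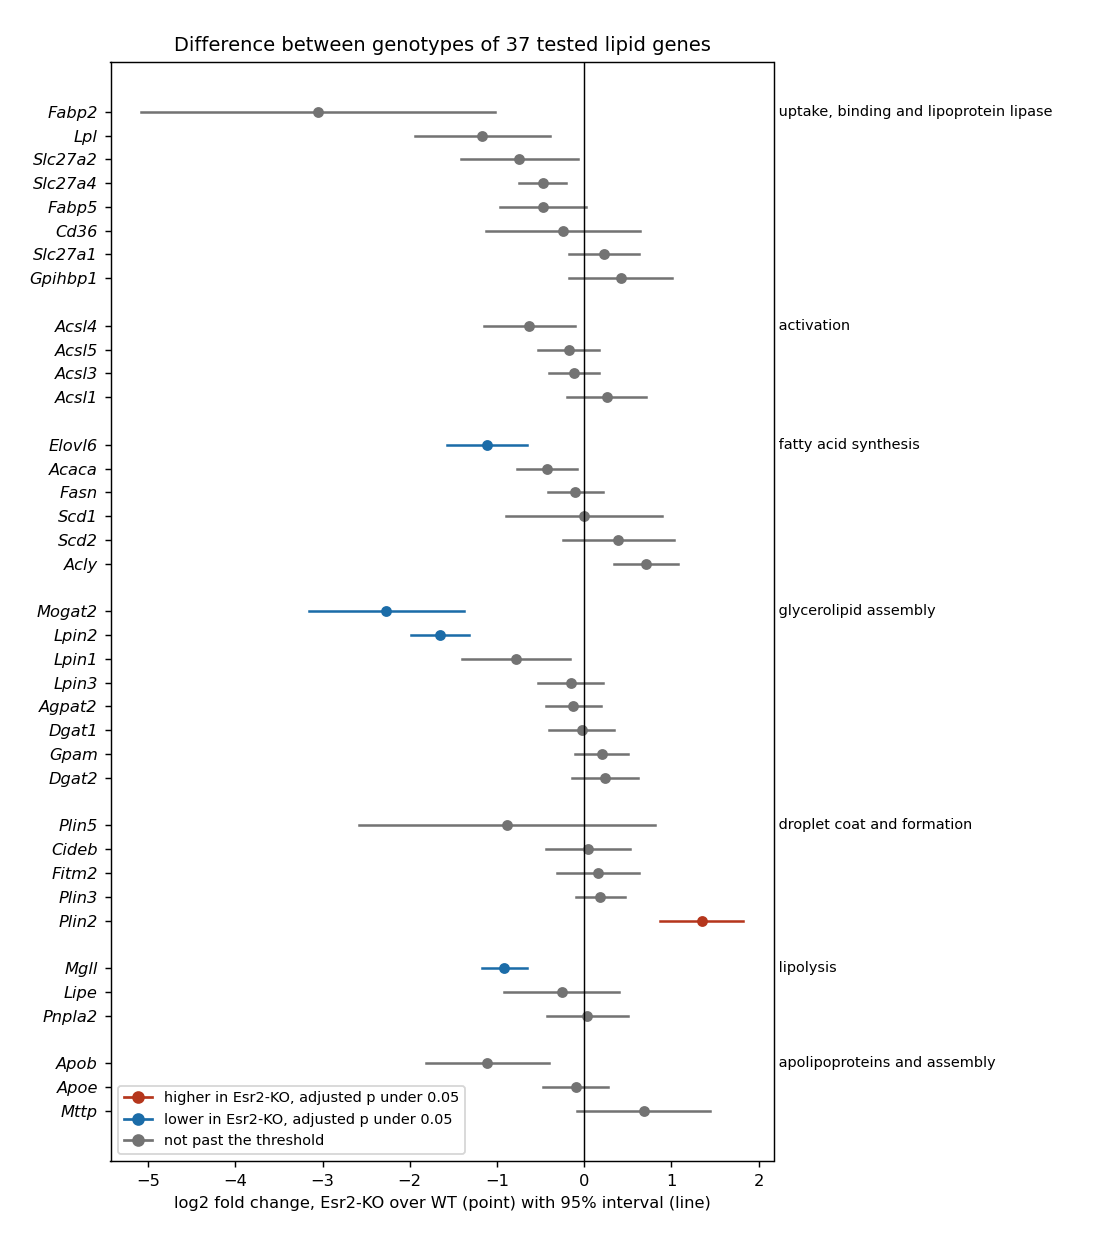
Log2 fold change (Esr2-KO over WT, horizontal axis) with its 95% interval for 37 tested genes, grouped by role. Plin2 is the 1 gene in red (1.35) and Lpin2, Mogat2, Mgll and Elovl6 are in blue (-1.66, -2.27, -0.91 and -1.11); Fabp1 is left out because its fitted value rests on a count of 0 in Esr2-KO.

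The promoters of the called genes except Mogat2 are shown because these genes went in both directions within the list of 44. No promoter of Mogat2 was at hand. RefSeq promoters (GRCm38.p6, 250 bases before to 50 after an annotated start) were at hand for 35 of the 44 genes, 48 promoters in all, and those of Plin2, Lpin2, Mgll and Elovl6 follow, each 5′ to 3′ on the strand of the gene. Capitals mark the E-box CACGTG, bound by clock and other helix-loop-helix factors, and the nuclear receptor core AGGTCA (or its reverse complement on the printed strand). Plin2 lies on the minus strand at chr4:86670010-86670309, and the others on the plus strand, Lpin2 at chr17:71183282-71183581 (the first of 3 starts), Mgll at chr6:88724162-88724461 (the first of 2 starts) and Elovl6 at chr3:129532136-129532435.
Plin2: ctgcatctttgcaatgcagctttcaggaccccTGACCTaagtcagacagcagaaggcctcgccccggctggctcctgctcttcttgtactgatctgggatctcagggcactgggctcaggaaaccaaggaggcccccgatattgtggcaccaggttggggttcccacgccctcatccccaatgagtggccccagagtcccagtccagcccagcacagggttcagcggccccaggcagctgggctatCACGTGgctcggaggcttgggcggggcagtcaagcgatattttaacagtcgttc
Lpin2: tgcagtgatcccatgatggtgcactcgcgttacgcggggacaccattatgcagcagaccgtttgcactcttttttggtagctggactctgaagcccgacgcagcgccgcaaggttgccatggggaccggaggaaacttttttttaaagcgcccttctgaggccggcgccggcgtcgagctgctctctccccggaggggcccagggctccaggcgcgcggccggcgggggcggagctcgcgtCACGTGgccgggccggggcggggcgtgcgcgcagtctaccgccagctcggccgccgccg
Mgll: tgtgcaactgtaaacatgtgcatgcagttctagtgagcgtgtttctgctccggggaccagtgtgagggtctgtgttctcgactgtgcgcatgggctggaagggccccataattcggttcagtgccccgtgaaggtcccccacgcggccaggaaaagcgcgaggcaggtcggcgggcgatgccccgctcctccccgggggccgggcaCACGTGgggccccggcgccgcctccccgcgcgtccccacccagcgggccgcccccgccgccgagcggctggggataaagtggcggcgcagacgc
Elovl6: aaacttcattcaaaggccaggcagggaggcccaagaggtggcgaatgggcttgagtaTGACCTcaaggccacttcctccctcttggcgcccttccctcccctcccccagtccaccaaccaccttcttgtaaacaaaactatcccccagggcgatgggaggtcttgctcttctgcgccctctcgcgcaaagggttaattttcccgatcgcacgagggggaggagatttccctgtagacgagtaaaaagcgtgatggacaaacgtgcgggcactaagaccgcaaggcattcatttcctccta

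The E-box began 4 bases before the start of Plin2, so that it ran across that start. It began 9 bases before the first start of Lpin2 and 44 before the first start of Mgll. No E-box was found at the other starts of Lpin2 and Mgll. It was found in 6 of the 48 promoters, the others being of Lipe, Lpin3 and Slc27a1, and in 7.15% of all 32851 promoters in the RefSeq set. The core AGGTCA was in 12 of the 48 promoters, those of Plin2 and Elovl6 among them, and in 16.3% of all. Both strands were searched, and the core also forms part of both direct repeats below. The estrogen response element (an inverted repeat of GGTCA around 3 bases), the PPAR and LXR elements (direct repeats of the core AGGTCA spaced by 1 and by 4 bases) and the HNF4 element CAAAGTCCA were in none of the 48, and in 0.0700%, 0.0396%, 0.0152% and 0.475% of all promoters. The sterol regulatory element TCACNCCAC was in 1 promoter, of Acsl1 (1.24% of all), and the hypoxia response core TACGTG in those of Apoc2, Lpin2 and Lpin3 (3.23% of all). These are matches of letters in a window of 300 bases and describe sequence, not binding.

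Of the 9 genes of uptake and binding 7 had negative log2 fold changes, but none passed the threshold. By edgeR's quasi-likelihood test 5 had an unadjusted p under 0.05, all lower, where 20.6% of all genes tested did, and DESeq2 called 2 (Fabp1 and Slc27a4) and limma-voom 1 (Fabp1). Fabp2, the intestinal fatty acid binding protein, was in WT the most abundant of all 44 genes per length, at 743 and 856 CPM per kilobase of exon, against 172 and 20.6 in Esr2-KO. Its level was 717 and 826 CPM for WT against 166 and 19.9 for Esr2-KO (log2 fold change -3.05 ± 0.85 SE with n = 2 per group, edgeR adjusted p = 0.115). Both Esr2-KO libraries lay below both WT libraries, and they also lay far from each other, with Esr2-KO 2 the lower. Without Esr2-KO 2 the log2 fold change was -2.21, and without Esr2-KO 1 it was -5.27. Each of these fits leaves 1 Esr2-KO library, so the wide spread between the Esr2-KO libraries does not enter it. The liver-type binding protein Fabp1 had 17 and 40 counts in WT but none in either Esr2-KO library. This was at least 16.2-fold lower if 3 counts over the group are taken as the floor (edgeR adjusted p = 0.0621). Fabp5, the epidermal type, stood at 16.1 and 16.9 against 13.8 and 9.98 CPM (adjusted p = 0.265).

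Alpi, the intestinal alkaline phosphatase of the enterocyte brush border, stood at 20.6 and 32.8 CPM for WT against 3.98 and 0.266 for Esr2-KO, in the same order of libraries as Fabp2. It belongs to a list of small intestinal enterocyte markers, of which 10 were tested, 6 with positive and 4 with negative log2 fold changes, and whose summed level was 150 and 227 CPM for WT against 222 and 239 for Esr2-KO. Sis and Lct, defining enzymes of that cell, were at or near 0 in every library except WT 2, where Sis reached 12.6 CPM. The summed level of 10 colonocyte markers was 10816 and 13581 CPM for WT against 7861 and 7086 for Esr2-KO, with 6 positive and 4 negative log2 fold changes. Car1 and Cyp2c55 carried the lower sum, and the other 8, a division made after the values were seen, summed to 5729 and 4830 CPM for WT against 6413 and 5669 for Esr2-KO. Among these 8, Guca2a and Krt20 also had negative log2 fold changes, and the 6 others positive ones. Guca2a stood at 2165 and 1636 CPM for WT against 654 and 209 for Esr2-KO, and Krt20 at 1054 and 764 against 645 and 511. The part of these cell types in the levels of Fabp1 and Fabp2 was not tested.

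The 3 fatty acid transport proteins had log2 fold changes on either side of 0. Slc27a4, a carrier and acyl-CoA synthetase of the intestine, stood at 66.9 and 72.8 CPM for WT against 49.3 and 51.1 for Esr2-KO (log2 fold change -0.48 ± 0.11, edgeR adjusted p = 0.0786). Slc27a2, which activates very long-chain fatty acids, was at 5.73 and 5.52 against 3.89 and 2.81 CPM (-0.74 ± 0.28, adjusted p = 0.205). Neither overlapped between groups, and neither passed. Slc27a1 had a log2 fold change of 0.23 with a 95% interval from -0.17 to 0.63. The scavenger receptor Cd36, which binds long-chain fatty acids, varied as much within as between groups, with 34.3 and 69.4 CPM for WT against 55.9 and 31.9 for Esr2-KO.

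Lpl encodes lipoprotein lipase, which frees fatty acids from circulating particles, and Gpihbp1 the endothelial protein that holds it in capillaries. Lpl stood at 101 and 183 CPM for WT against 78.2 and 47.9 for Esr2-KO (log2 fold change -1.17 ± 0.32, edgeR adjusted p = 0.114). Its log2 fold change was -1.56 without Esr2-KO 1 and -0.67 without WT 2. Gpihbp1 was at 4.19 and 3.91 against 5.32 and 5.50 CPM (0.42, 95% interval -0.17 to 1.01), and the summed level of 10 endothelial markers was 187 and 203 CPM for WT against 219 and 220 for Esr2-KO, with all 9 tested markers positive. The 11 adipocyte markers summed to 457 and 944 CPM for WT against 802 and 337 for Esr2-KO. This order of libraries, WT 2 highest, Esr2-KO 1 next, then WT 1 and Esr2-KO 2, was also that of Cd36, of Pnpla2 at its upper end, and of the hormone-sensitive lipase gene Lipe (22.6 and 35.5 against 29.3 and 19.2 CPM). Of the 11 adipocyte markers 10 had negative log2 fold changes. None of the 11 had an unadjusted p under 0.05 with edgeR, and 10 of these markers overlapped between groups. Their part in these genes was not tested.

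**Figure D2:**
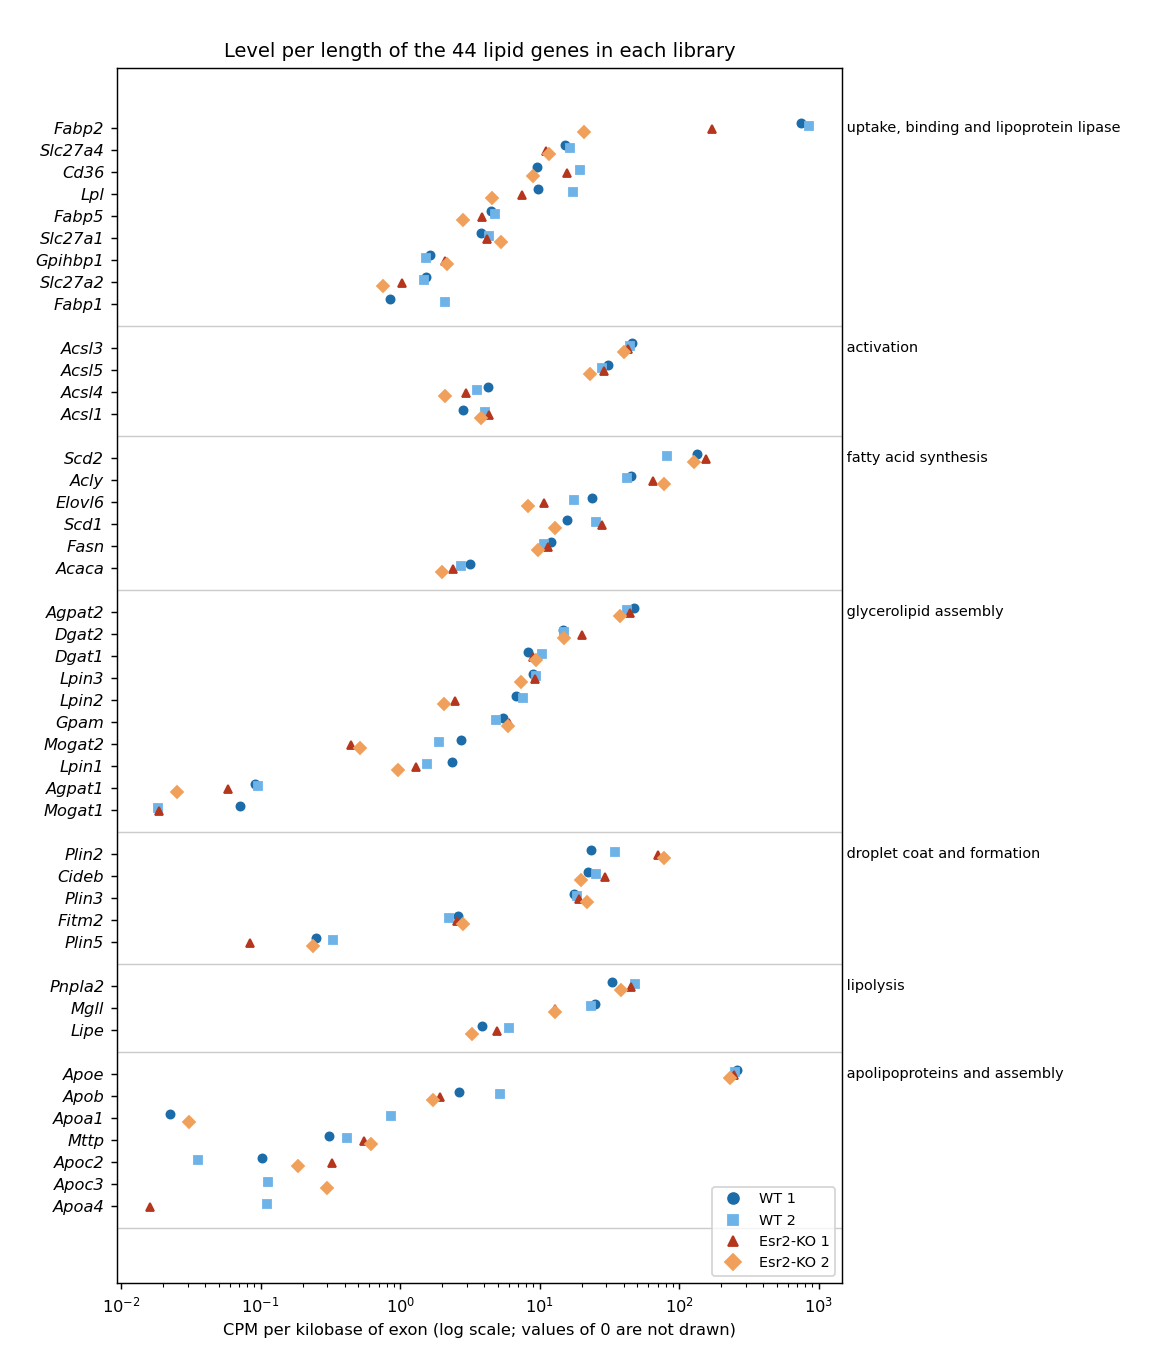
Level per length (CPM per kilobase of exon, log axis) of the 44 genes in each of the 4 libraries, grouped by role and ordered by the WT mean. Fabp2, Apoe and Scd2 are the most abundant in WT, Apoe is the highest in both Esr2-KO libraries, and Plin5, Mttp and the 6 untested genes lie below 1 CPM per kilobase in every library.

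Acyl-CoA synthetases activate fatty acids. None of the 4 passed with edgeR, DESeq2 or limma-voom, and 1 had an unadjusted p under 0.05 with each tool. Acsl3, the droplet-associated form, led the group per length, with 45.7 and 44.3 CPM per kilobase in WT and 42.9 and 39.9 in Esr2-KO, and its log2 fold change of -0.12 had a 95% interval from -0.41 to 0.17. Acsl5, a form abundant in intestine, followed (-0.18, interval -0.53 to 0.17). The arachidonate-preferring Acsl4 stood at 23.1 and 19.1 CPM for WT against 16.0 and 11.3 for Esr2-KO (-0.63 ± 0.22, edgeR adjusted p = 0.174, and -0.90 without Esr2-KO 1). Acsl1, of mixed roles in synthesis and oxidation, had a log2 fold change of 0.26 (interval -0.20 to 0.71).

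Fatty acid synthesis did not move as a unit. Elovl6 (chromosome 3, 129532355 to 129638495) stood at 153 and 113 CPM for WT against 69.3 and 53.4 for Esr2-KO. The groups did not overlap, and the log2 fold change was -1.11 ± 0.19 with an edgeR adjusted p of 0.0395. Without WT 1 it was -0.88 and did not pass (adjusted p = 0.118). Acly, which makes cytosolic acetyl-CoA from citrate at the head of the pathway, lay the other way, at 237 and 224 CPM for WT against 342 and 413 for Esr2-KO (0.71 ± 0.15, edgeR adjusted p = 0.0645). It was called by DESeq2 (4.77e-05), by limma-voom (0.0442), without the low-count filter (0.0048) and without the pancreatic genes (0.0485). Of the fits with 1 library left out, only the fit without Esr2-KO 1 called it. Log2 fold changes in the fits that called it ran from 0.71 to 0.84. DESeq2 and the fit without the filter also called more of all genes tested. Acly was not called by edgeR's likelihood ratio test, with a replicate block, or with a filter of 1 CPM in 2 libraries. Nor was it called with library totals, DESeq2 size factors or upper-quartile factors in place of TMM.

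The other enzymes of fatty acid synthesis lay on either side of 0. Acaca and Fasn had negative log2 fold changes and Scd2 a positive one (0.39). Acaca, acetyl-CoA carboxylase, was at 53.9 and 46.9 against 41.0 and 34.0 CPM (-0.43 ± 0.15, edgeR adjusted p = 0.170), and fatty acid synthase (Fasn) at 132 and 117 against 125 and 107 CPM (-0.10, 95% interval -0.42 to 0.22). Scd2, the stearoyl-CoA desaturase that is most abundant here per length (134 and 81.7 CPM per kilobase in WT, 155 and 128 in Esr2-KO), overlapped between groups. Scd1 stood at 76.5 and 123 CPM for WT against 137 and 62.6 for Esr2-KO, and its log2 fold change was -0.0008 with a 95% interval from -0.89 to 0.89, wide enough to hold sizeable changes in either direction. Scd1 and Scd2 are close relatives and neighbours on chromosome 19, and reads they share may have been split between them.

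In glycerolipid assembly 2 of 8 tested genes fell and none rose, where 1.39% of all genes tested were called lower and 1.30% higher. Lpin2 (chromosome 17, 71182560 to 71249817) stood at 82.5 and 92.8 CPM for WT against 30.3 and 25.3 for Esr2-KO. Its log2 fold change was -1.66 ± 0.14, 3.15-fold lower, with an edgeR adjusted p of 0.0126, the smallest among the 38 genes. Lpin2 passed with each of the 4 libraries left out in turn, with adjusted p from 0.000161 to 0.0149 and log2 fold changes from -1.79 to -1.53.

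Lpin1 and Lpin3 encode the other phosphatidate phosphatases of the family, which can also act as transcriptional coregulators in the case of lipin 1. Lpin1 was at 22.8 and 15.1 against 12.6 and 9.37 CPM (-0.78 ± 0.26, edgeR adjusted p = 0.159), and Lpin3 at 33.2 and 35.0 against 34.3 and 27.0 CPM (-0.15, interval -0.53 to 0.22). Per length, the 3 lipins together summed to 18.1 and 18.6 CPM per kilobase in WT and 13.1 and 10.3 in Esr2-KO. Lpin2 made up 37.3% and 40.7% of that sum in WT and 18.9% and 20.0% in Esr2-KO, and Lpin3 49.7% and 50.9% against 71.1% and 70.6%. Whether the lipins differed from each other in their response was not tested.

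Mogat2, the intestinal monoacylglycerol acyltransferase that re-forms triacylglycerol from absorbed monoacylglycerol, was a low transcript in this colon. It lies on chromosome 7 from 99219084 to 99238619 and had WT counts of 183 and 121 and Esr2-KO counts of 28 and 25. In CPM these were 5.04 and 3.48 against 0.819 and 0.948, and the log2 fold change was -2.27 ± 0.37 (edgeR adjusted p = 0.0353). The call was lost when WT 1 (-1.97, adjusted p = 0.196) or WT 2 (-2.49, 0.0592) was left out, and when replicate number was a block (-2.25, 0.0555). Its neighbour Dgat2 on the same chromosome was at 45.0 and 46.3 against 61.5 and 46.0 CPM (0.24, interval -0.14 to 0.61). Dgat1, the other enzyme of the last step of triacylglycerol synthesis, had a log2 fold change of -0.03 (interval -0.40 to 0.34).

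Gpam, Agpat1 and Agpat2 act before the lipins, and neither Gpam nor Agpat2 was called by edgeR, DESeq2 or limma-voom. Gpam, the mitochondrial glycerol-3-phosphate acyltransferase, was at 36.5 and 32.6 against 40.1 and 39.4 CPM (0.20, interval -0.10 to 0.50). Agpat2, which makes phosphatidate, was the most abundant of these genes per length, at 47.5 and 42.3 CPM per kilobase in WT and 44.6 and 37.8 in Esr2-KO (-0.12, interval -0.44 to 0.19). Agpat1 had 10 counts in each WT library and 6 and 2 in Esr2-KO, and Mogat1 4 and 1 against 1 and 0, and neither was tested. The ratio of WT to Esr2-KO for Mogat1 was 4.26 with a 95% counting interval from 0.477 to 201. The gene models of Agpat1 and Egfl8 overlap on opposite strands, and whether strand was used in counting is unknown here. The same limit applies to Elovl6, Mogat2 and Mgll, which each overlap a predicted gene on the other strand. It also applies to Agpat2 with Egfl7, Acsl5 with Zdhhc6, Cideb with Nop9 and Mttp with Trmt10a, and, among genes described further on, to Acss2 with Ggt7 and Gss and to Hif1a. A few others, such as Slc27a2, Acsl1, Fitm2 and Lipe, overlap a predicted gene or unnamed transcript on the other strand. Acsl3 overlaps Utp14b on its own strand, and Nr1h3 and Hif1a each a predicted gene on theirs.

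**Figure D3:**
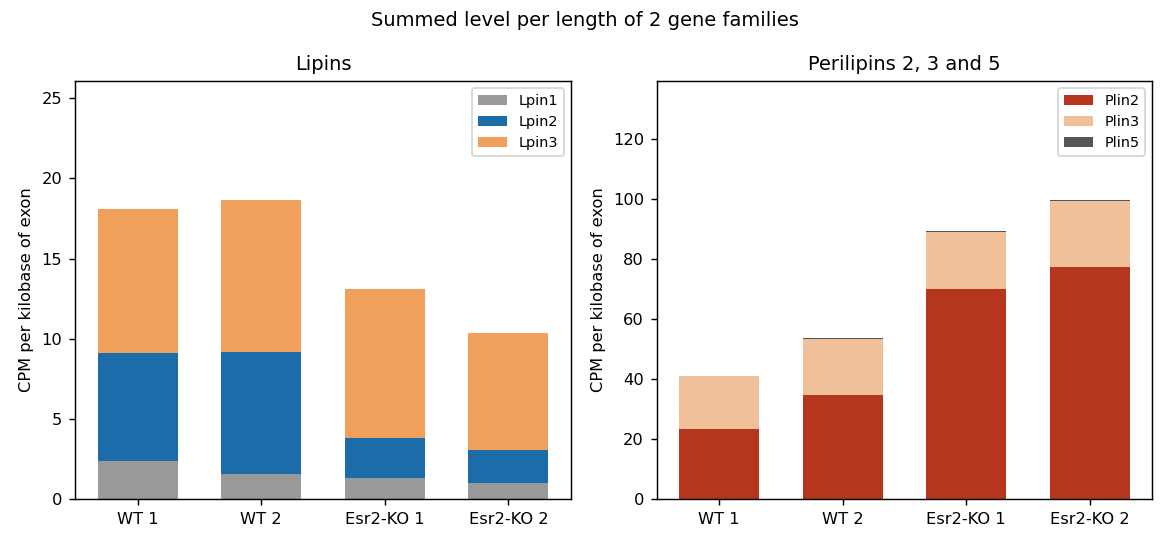
Summed level per length (CPM per kilobase of exon, vertical axis) of the 3 lipin genes (left) and of Plin2, Plin3 and Plin5 (right) in each library, stacked by gene. The Lpin2 segment is smaller in both Esr2-KO libraries (2.48 and 2.07) than in WT (6.75 and 7.59), and the Plin2 segment is larger (69.9 and 77.2 against 23.3 and 34.6).

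Of the 5 genes of droplet coat and formation, Plin2 rose and the other 4 did not pass. Plin2 (chromosome 4, 86648386 to 86670060) stood at 81.8 and 121 CPM for WT against 245 and 271 for Esr2-KO (log2 fold change 1.35 ± 0.20, edgeR adjusted p = 0.0297). Every Esr2-KO value was above every WT value, and the WT libraries differed more from each other than the Esr2-KO libraries did. Without WT 1 the log2 fold change was 1.09 and the adjusted p 0.050, just over the threshold. Plin3, a coat protein of small droplets, was at 66.4 and 70.4 against 72.4 and 83.0 CPM (0.18, interval -0.10 to 0.47). Plin5, which coats droplets in oxidative tissue, had WT counts of 19 and 24 and Esr2-KO counts of 6 and 13 (-0.89 ± 0.71, edgeR adjusted p = 0.522). Plin2 made up 56.7% and 64.6% of the summed level per length of these 3 perilipins in WT and 78.4% and 77.7% in Esr2-KO. Fitm2, which partitions triacylglycerol into budding droplets, and Cideb, which acts in droplet and lipoprotein lipid loading, overlapped between groups (0.16 and 0.05, intervals -0.31 to 0.62 and -0.43 to 0.53).

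Lipolysis proceeds from Pnpla2, the triacylglycerol lipase ATGL, through Lipe to Mgll, the monoacylglycerol lipase, and only the last of these 3 was called. Mgll (chromosome 6, 88724412 to 88828360) stood at 126 and 119 CPM for WT against 64.9 and 64.8 for Esr2-KO. Its log2 fold change was -0.91 ± 0.11, 1.88-fold lower, with an edgeR adjusted p of 0.0200, and the 2 libraries of each group lay close together. Without WT 1 the value was -0.87 and did not pass (adjusted p = 0.0567). Pnpla2 was the most abundant of the 3 per length, at 33.1 and 48.0 CPM per kilobase in WT and 45.2 and 38.0 in Esr2-KO (0.04, interval -0.43 to 0.50). The log2 fold change of Lipe was -0.26 (interval -0.92 to 0.40).

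**Figure D4:**
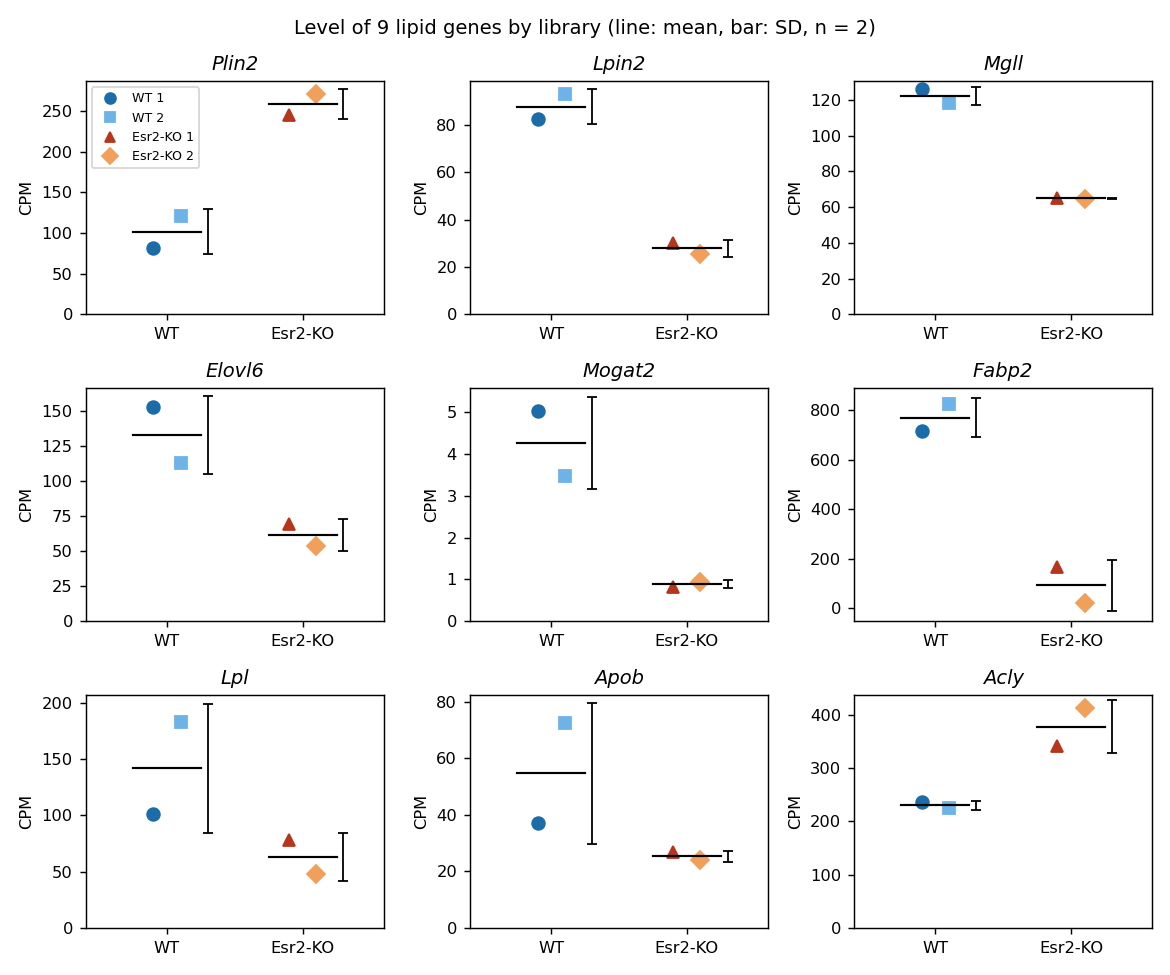
CPM (vertical axis, linear) of 9 genes in each library, with the group mean as a line and the SD as a bar (n = 2). The 5 genes past the threshold are Plin2, Lpin2, Mgll, Elovl6 and Mogat2; Fabp2, Lpl, Apob and Acly also show no overlap of the groups but did not pass.

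Apolipoprotein genes were mostly near the limit of detection, apart from Apoe and Apob, and none of the 3 tested genes of this group passed with edgeR or limma-voom, while DESeq2 called Apob and each tool gave 1 unadjusted p under 0.05. Apoe, which macrophages and other cells secrete for particle clearance, was after Fabp2 the most abundant of the 44 genes per length in WT, at 259 and 253 CPM per kilobase, and ranked first in both Esr2-KO libraries, at 245 and 232. Its log2 fold change was -0.10 with an interval from -0.47 to 0.27. The summed level of 9 macrophage markers was 405 and 401 CPM for WT against 403 and 405 for Esr2-KO. Of these markers 4 had positive and 5 negative log2 fold changes, and edgeR gave 3 an unadjusted p under 0.05. Apob, the structural protein of chylomicrons and very low density lipoprotein, stood at 37 and 72.4 CPM for WT against 26.7 and 23.9 for Esr2-KO (-1.11 ± 0.30, edgeR adjusted p = 0.104, DESeq2 0.00337). WT 2 was far above the other libraries, and the log2 fold change was -0.53 without it, -1.52 without WT 1 and -1.19 without Esr2-KO 1.

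Mttp, the transfer protein that loads lipid onto apolipoprotein B, did not follow Apob: it was at 1.93 and 2.59 CPM for WT against 3.42 and 3.83 for Esr2-KO (0.68 ± 0.32, edgeR adjusted p = 0.291). Apoa1, the main protein of high density lipoprotein, had WT counts of 1 and 37 and Esr2-KO counts of 0 and 1, so that 1 library, WT 2, held nearly all of them, as it did those of Sis. The ratio of WT to Esr2-KO for Apoa1 was 32.4 with a 95% counting interval from 5.47 to 1312, which covers counting error only. Its neighbours on chromosome 9, Apoa4 of chylomicrons and Apoc3, an inhibitor of triacylglycerol clearance, had 0 and 7 against 1 and 0 counts and 0 and 4 against 0 and 8 counts. Apoc2, the cofactor of lipoprotein lipase, had 3 and 1 against 9 and 4 counts. None of these 4 genes was tested.

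The 73 further symbols of lipid handling that the table held were described alongside, a list of other binding proteins, elongases, desaturases, acyltransferases, lipases and apolipoproteins. Of 58 tested, 2 rose and 2 fell, with a list median of -0.09, where 2.69% of all genes tested passed. The 2 that rose were Fads2, the delta-6 desaturase of polyunsaturated fatty acid synthesis, and Acss2, which makes acetyl-CoA from acetate. Fads2 stood at 99.0 and 96.8 CPM for WT against 202 and 242 for Esr2-KO (1.18 ± 0.14, edgeR adjusted p = 0.0197), and Acss2 at 95.6 and 94.1 against 148 and 158 CPM (0.69 ± 0.11, 0.0349). The carboxylesterases Ces1f and Ces1d, which hydrolyse neutral lipids, fell from 101 and 109 to 29.7 and 31.5 CPM (-1.77 ± 0.11, 0.00699) and from 63.9 and 79.7 to 28.9 and 25.5 CPM (-1.40 ± 0.15, 0.0196). Ces1d and Ces1f belong to 1 family of paralogues, and whether the counting split reads between them was not tested. Agpat9, the glycerol-3-phosphate acyltransferase GPAT3 that acts before the lipins, was named after its values were seen. It stood at 16.5 and 16.4 CPM for WT against 6.72 and 2.92 for Esr2-KO (-1.76 ± 0.37, edgeR adjusted p = 0.0615), and DESeq2 and limma-voom called it. Fads2 did not pass without WT 1 (adjusted p = 0.050), and Acss2 not without WT 1 (0.135), WT 2 (0.104) or Esr2-KO 2 (0.0549), with a replicate block (0.0515) or with library totals in place of TMM (0.221).

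Transcription factors and sensors that govern these genes gave 2 rises and 1 fall among 25 tested, with a list median of 0.20, where 2.69% of all genes tested passed. Nr1h3, the oxysterol receptor LXRα, stood at 15 and 18.6 CPM for WT against 32.4 and 31.9 for Esr2-KO (0.94 ± 0.16, edgeR adjusted p = 0.0364). Hif1a, the hypoxia-inducible factor, was at 113 and 85.9 against 199 and 177 CPM (0.92 ± 0.16, 0.0436). Pparg, the lipid-sensing receptor PPARγ, was at 95.2 and 102 against 64.2 and 53.1 CPM (-0.75 ± 0.13, 0.0414). All 3 separated the groups, as did 17 of the 25 regulators tested and 54.7% of all genes tested, and each call was near the threshold.

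No edgeR call among the regulators held without WT 2. DESeq2 and limma-voom on all 4 libraries called 8 and 3, and DESeq2 also called more of all genes tested than edgeR did. Nr1h3 and Pparg also did not pass without WT 1 or with a replicate block (edgeR adjusted p = 0.0521 and 0.0570), nor Pparg without Esr2-KO 2. With library totals in place of TMM, Nr1h3 (0.0719) and Hif1a (0.124) did not pass. Srebf1, the master factor of fatty acid synthesis genes, overlapped between groups at 64.6 and 49.9 against 64.9 and 64.4 CPM. Its log2 fold change was 0.17 ± 0.15 (edgeR adjusted p = 0.542). Ppara, the fatty acid receptor that drives oxidation, missed the threshold at 27.6 and 41.0 against 16.8 and 13.9 CPM (-1.16 ± 0.22, edgeR adjusted p = 0.0501).

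Leaving out Esr2-KO 2, the library with pancreatic transcripts, gave 6 calls among the 44 genes, all 5 of the genes above and Fabp2, against 2.77% of all genes tested in that fit. Leaving out WT 1 gave 2 calls, Lpin2 and Apob, against 0.921% of all genes tested in that fit. Leaving out WT 2 gave 4, the 5 above without Mogat2, against 1.85%. Leaving out Esr2-KO 1 gave 12, all 5 above among them, against 1804 of all 17984 genes tested (10%). A group of 1 library is assumed there to vary like the other group. Of the 70 combinations of the 5 called genes and an alternative, 64 kept the call and 6 did not pass. The sign was kept in all 70, but it could hardly turn, since the groups of these genes do not overlap.

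**Figure D5:**
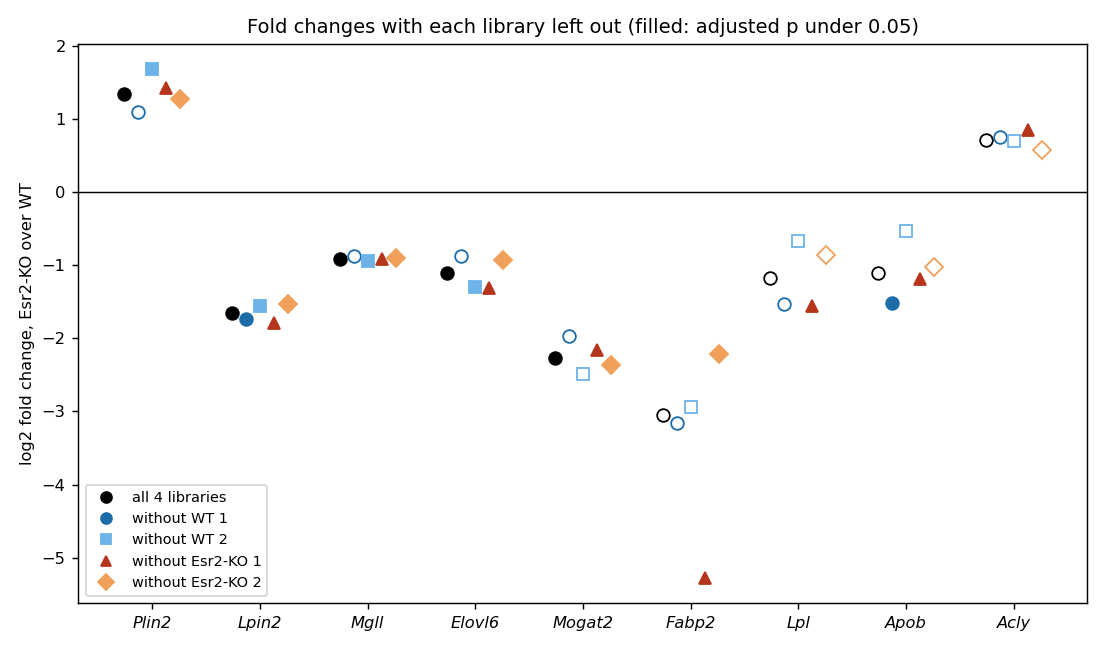
Log2 fold change (Esr2-KO over WT, vertical axis) of 9 genes with all 4 libraries and with each library left out; filled symbols passed an adjusted p of 0.05. Lpin2 is filled in all 5 fits, Plin2, Mgll and Elovl6 are open without WT 1, and Fabp2 runs from -5.27 without Esr2-KO 1 to -2.21 without Esr2-KO 2.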

How the data were processed

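The deposited values are raw counts per gene symbol, whole numbers as the table itself shows. Reads were aligned with HISAT2 to mm10, per the submitters' processing notes; per the labels' protocols, RNA was depleted of ribosomal RNA and made into directional libraries. Nothing used here names the counting program, its annotation or its use of strand. Genes kept by filterByExpr (minimum count 10, minimum total 15) were scaled by TMM and passed to edgeR 4.0.16 under R 4.3.3 (glmQLFit, glmQLFTest, two-sided, genotype only, 2 residual degrees of freedom), with Benjamini-Hochberg adjustment over 17169 genes and a threshold of 0.05. Standard errors and 95% intervals came from the F statistic. Exon lengths and gene positions, counted from 1, are of GENCODE M21 (GRCm38, the same build). Chi-square divided by its degrees of freedom was 39.7 between the WT libraries (18545 genes) and 478 between the Esr2-KO libraries (18132 genes), far above sampling noise. It was taken on raw counts and library totals with the pancreatic genes included, so it does not give the spread of a typical gene. The median absolute log2 difference over all genes tested was 0.198 between the WT libraries and 0.226 between the Esr2-KO libraries. Over the lipid genes tested it was 0.201 and 0.263. Of the 44 genes, those described in full passed the threshold, had an unadjusted p under 0.05 with no overlap, or were the most abundant per length of their role. Of the further lipid genes and the regulators, those past the threshold were named, and Agpat9, Ppara and Srebf1 were named after their values were seen. The genes and lists were chosen with earlier results of these data known. DESeq2 1.42.0 and limma 3.58.1 (voom) were alternatives. The procedure was also run on simulated counts, drawn with a dispersion common to all genes and no library that stood apart. That run therefore gives no measure of error under the spread seen between the Esr2-KO libraries. The design text speaks of triplicates; the 4 libraries above are those analysed here. Where a library left out leaves a group with 1, that library is assumed to vary like the other group.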

Additional observations from a re-analysis of the deposited data

How the results depend on the processing

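With TMM replaced by library totals, without a filter, with DESeq2, edgeR's likelihood ratio test, or an adjusted p of 0.1, all genes called were 695, 1916, 1730, 1341 and 1245 against 462, and the lipid genes called 8, 12, 9, 9 and 8 against 5, which were among those in each case. The further lipid genes called were 8 with no filter, 10 with DESeq2 and 7 at 0.1 against 4, and the regulators 8, 8 and 6 against 3, with 7 by the likelihood ratio test. Library totals moved the median log2 fold change of all genes to -0.17, and then 208 genes were higher and 487 lower (223 and 239 with TMM), 1 and 3 of the further lipid genes, and 0 and 3 of the regulators. With the replicate number as a block, 490 genes, 4 lipid genes and 1 regulator were called. Deviations of same-numbered libraries from their group means correlated at -0.08 over 17169 genes, so that the numbers do not show a pairing. Leaving out 1 library each gave 165 to 1804 genes, 2 to 12 lipid genes, 2 to 12 further lipid genes and 0 to 8 regulators, and without pancreatic genes 6 lipid genes were called. The cause of these differences was not tested.

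Signs turned only for lipid genes that no fit called. With a library left out, Cd36 ran from -0.69 to 0.37, Cideb from -0.25 to 0.31, Dgat1 from -0.18 to 0.16, Fasn from -0.21 to 0.012, Lipe from -0.60 to 0.12, Lpin3 from -0.33 to 0.016, Pnpla2 from -0.21 to 0.34 and Scd1 from -0.67 to 0.46. With library totals Cideb was at -0.089, Fitm2 at -0.013 and Pnpla2 at -0.11. Scd1 was at 0.00047 with DESeq2, 0.0014 with its size factors, 0.0076 with no filter and 0.0083 without pancreatic genes. At the depth of these libraries 6 of the 44 genes, 4 of them apolipoproteins, had too few counts to test. Fabp2, with high counts, had an interval from -5.09 to -1.02.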
